A study of Mus musculus with 4 samples.

Results

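The genes described here are 40 genes that build or switch on motile cilia, out of 19938 genes with a value in the nasal mucosa of mice. They were taken from a list of symbols: 4 regulators of ciliated cell fate, 6 genes of the outer dynein arms, 8 of the inner dynein arms, 4 for arm assembly, the axonemal ruler and the nexin link, 3 of the radial spokes, 5 of the central apparatus, 3 tektins and 7 other ciliary proteins. All 40 symbols were found on the array. Total RNA of the mucosa lining the nasal septum and turbinates was isolated with TRIzol and measured on whole-transcript Affymetrix arrays. The 4 groups were wild-type (Duox2+/+) mice given PBS, wild-type mice given flagellin, Duox2-/- mice given PBS and Duox2-/- mice given flagellin. All mice were 8 weeks old. The wild-type sample titles label the strain C56BL/6, and the Duox2-/- sample titles name no strain. A volume of 25 ul of PBS or of flagellin at 5 ug/ml went into each nostril 4 h before the tissue was taken. Each group had 1 array. Whether an array holds 1 mouse or a pool, and how the Duox2 allele was made, are not given in the sources used here.

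A motile cilium is a microtubule axoneme whose outer doublets slide past each other when dynein arms walk along them. Outer arms give most of the beat's power and inner arms shape its bend, while the radial spokes, the nexin link and the central apparatus coordinate the arms. In the nose, multiciliated cells of the respiratory epithelium beat mucus towards the throat, and loss of many of these proteins causes primary ciliary dyskinesia. The olfactory neurons of the same mucosa also carry many cilia, which in the mouse lack dynein arms. Foxj1 and the RFX factors drive the axonemal genes, and Mcidas acts upstream of them. Flagellin is the bacterial protein that Toll-like receptor 5 detects, and Duox2 is an epithelial oxidase that makes hydrogen peroxide.

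Many cilia genes carry X-box motifs, to which RFX factors bind, close to their start sites. RefSeq promoter windows on GRCm38.p6, from 250 bases before to 50 bases after the start, were at hand for 33 of the 40 genes; Foxj1, Dnah3, Dnaaf1, Rsph1, Rsph4a, Cfap65 and Tppp3 had no entry. The letters GTTGCC, which form one arm of the X-box, were searched on both strands and stood in the windows of 16 of the 33 genes, or 48.5%. The same letters stood in 31 of 60 other motile cilia genes (51.7%), in 12 of 27 genes of intraflagellar transport and the BBSome (44.4%), in 0 of 7 general epithelial genes, and in 3821 of 27025 genes of the whole table (14.1%). The longer form GTTNCCAT, which holds the shorter one where N is G, stood in 7 of the 33 genes (21.2%) and in 5.12% of all genes. The forkhead core GTAAACA, the letters that Foxj1 and its relatives can bind, stood in 2 of the 33 (6.06%) and in 4.05% of all genes. A match is a description of letters and not a measured binding site. Shown here are matches of the regulators Rfx2 and Mcidas, of 2 genes with large differences after flagellin and of an axonemal gene lower in both Duox2-/- arrays. Each is read 5′ to 3′ in the direction of its gene, with the searched letters (or their reverse complement) in capitals.
Rfx2 (chr17:56831089-56831154, minus strand, match at -116): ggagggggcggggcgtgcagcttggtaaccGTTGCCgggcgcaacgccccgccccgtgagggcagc
Mcidas (chr13:112993643-112993708, plus strand, match at -195): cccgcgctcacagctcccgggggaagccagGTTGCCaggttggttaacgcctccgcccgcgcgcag
Dnah5 (chr15:28203669-28203736, plus strand, match at -67): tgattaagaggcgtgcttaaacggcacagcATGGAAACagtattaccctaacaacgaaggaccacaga
Spag17 (chr3:99885299-99885366, plus strand, match at -88): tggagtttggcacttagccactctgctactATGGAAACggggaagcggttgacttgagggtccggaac
Cfap44 (chr16:44394640-44394705, plus strand, match at -129): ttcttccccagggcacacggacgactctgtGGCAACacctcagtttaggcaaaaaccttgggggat
Positions count from the start site, and the capitals of Dnah5 and Spag17 are GTTNCCAT on the other strand.

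Values are log2 RMA signals, so a difference of 1 is 2-fold. A gene was read at its brightest probe set and called ranked if it reached 6.52, the median of all values, on at least 1 array; 36 of the 40 genes and 12471 of all genes did. Dnah7a, Spag6, Spag16 and Tekt2 did not, and their differences lie near background. Mcidas and Drc1 reached that level in Duox2-/- arrays only and Spag17 in wild-type arrays only, so for these 3 genes the filter itself favours a difference. The array medians lay between 6.48 and 6.56 and the interquartile range between 2.43 and 2.79, narrower in both Duox2-/- arrays. Olfactory marker protein Omp (11.9 to 12.2) and the epithelial adhesion molecule Epcam (9.72 to 9.89) were high on every array, while the club cell secretoglobin Scgb1a1 (3.23 to 4.30) was near background on all 4. The Duox2 probe set read 4.95, 5.12, 5.23 and 5.50, not lower in the arrays labelled Duox2-/-; it is near background, and whether it lies in the deleted part is not known, so the genotype labels have no check here. With 1 array a group, a pairwise difference has no error and no test. In bulk tissue, fewer ciliated cells and less RNA per ciliated cell cannot be told apart.

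Motile cilia genes were, for the most part, slightly lower on the other 3 arrays than on the wild-type PBS array. That array held the highest of the 4 values for 31 of the 40 genes, against 33.5% of all ranked genes. The Duox2-/- flagellin array held the lowest value for 28 of the 40, against 51.0% of ranked genes. Both were true of 25 genes, against 23.5% of ranked genes. By genotype, both Duox2-/- arrays lay below both wild-type arrays for 21 of the 40, against 39.2% of ranked genes, and above both for 4 of the 40 (Rfx2, Mcidas, Drc1 and Spag6), against 18.3%. The median level of the 40 genes was 7.93 for wild-type mice given PBS and 7.78 for those given flagellin, and in Duox2-/- mice it was 7.64 and 7.52 respectively. The steps are small: no gene of the 40 differed by 2-fold in any of the 4 pairwise comparisons, where 0.978%, 0.682%, 1.41% and 2.0% of ranked genes did (flagellin in wild type, flagellin in Duox2-/-, genotype under PBS and genotype after flagellin).

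**Figure D1:**
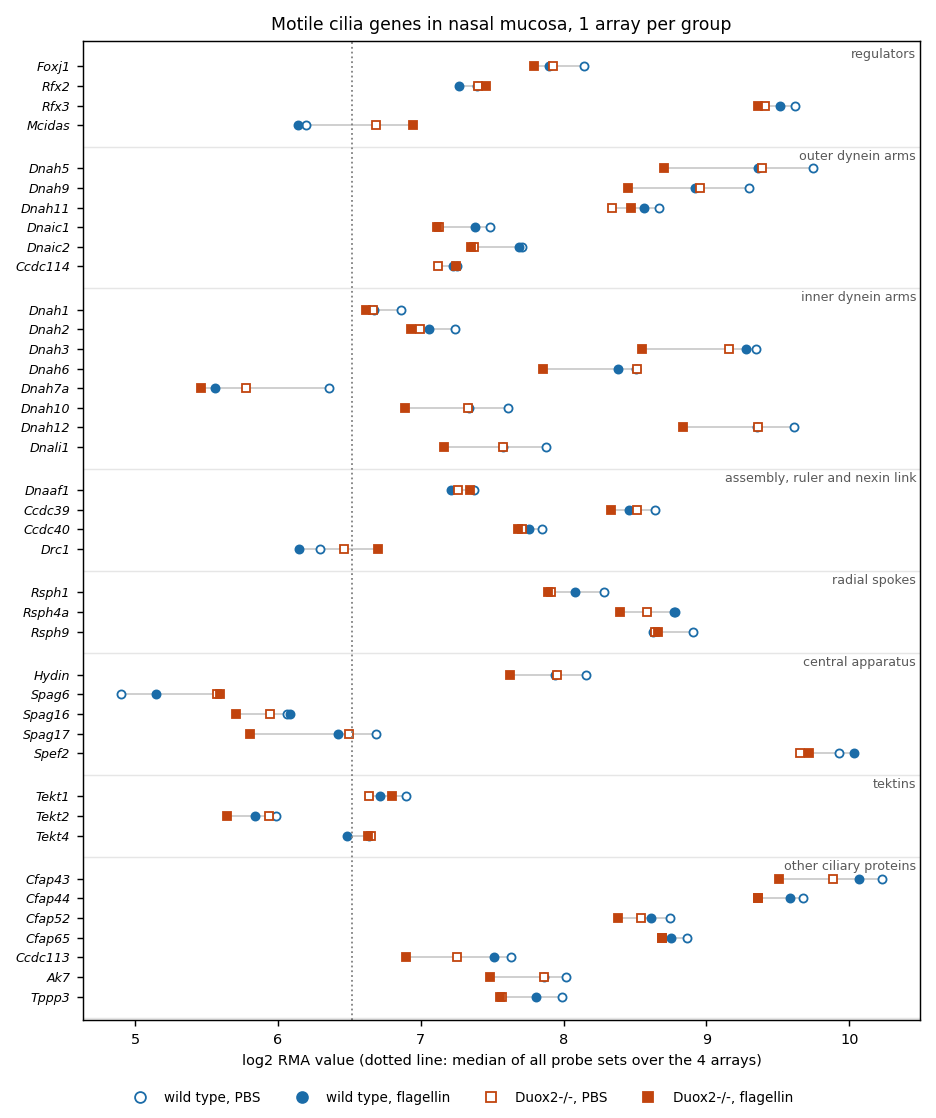
Log2 RMA value (horizontal axis) of each of the 40 genes on the 4 arrays, with 1 symbol per array and genes grouped by role; the dotted line marks 6.52, the median of all values. The open circle of the wild-type PBS array lies farthest right for 31 genes and the filled square of the Duox2-/- flagellin array farthest left for 28; Mcidas, Drc1 and Spag6 have both squares clearly to the right of both circles.

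Given flagellin, wild-type mucosa read lower than PBS for 36 of the 40 genes, against 50.4% of ranked genes. The median difference was -0.15, and that of ranked genes was -0.0018. Among the regulators, the ciliated cell master factor Foxj1 read 8.14 under PBS and 7.90 after flagellin. The outer arm heavy chains Dnah5 and Dnah9 had differences of -0.39 and -0.37. The inner arm group had a median of -0.22, with all 8 genes below 0. The radial spoke head genes Rsph9 (-0.28) and Rsph1 (-0.20) lay below 0 and the third, Rsph4a, at 0.00. The exceptions were in the central apparatus, where Spef2 (0.11), Spag16 (0.02) and Spag6 (0.25) lay above 0; the last 2 are dim, and Spag16 turned to the other side of 0 under each rescaling of the arrays. One gene passed 1.5-fold lower, the unranked Dnah7a at -0.80, as did 0.569% of ranked genes and 124 of all 19938 genes. Dnah7a is dim and shares sequence with its near-identical copies Dnah7b and Dnah7c, so its value is uncertain. No gene of the 40 passed 1.5-fold higher, as 2.36% of ranked genes did.

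In the arrays labelled Duox2-/-, the flagellin difference was uneven across the axoneme. The median of the 40 genes was -0.06, close to that of ranked genes (-0.07), and 29 of the 40 lay below 0, against 62.2% of ranked genes. Under quantile and loess rescaling 23 of the 40 lay below 0, beside 49.9% and 48.2% of ranked genes. The 8 inner arm genes were all below 0, with a median of -0.43, while the regulators stood at 0.00 and the assembly, ruler and nexin genes at 0.03. Outer arms (-0.02) and radial spokes (-0.02) were also near 0, and both turned positive under quantile and loess rescaling (0.03 to 0.09). Passing 1.5-fold lower were Spag17 (-0.70), Dnah5 (-0.69), Dnah6 (-0.66) and Dnah3 (-0.61), 4 of 40 against 3.13% of ranked genes. Under loess rescaling Dnah5 (-0.56), Dnah6 (-0.54) and Dnah3 (-0.48) did not reach 1.5-fold. Under quantile rescaling Dnah5 (-0.59) still did, while Dnah6 (-0.57) and Dnah3 (-0.49) did not. None was 1.5-fold higher as deposited, against 0.994%.

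**Figure D2:**
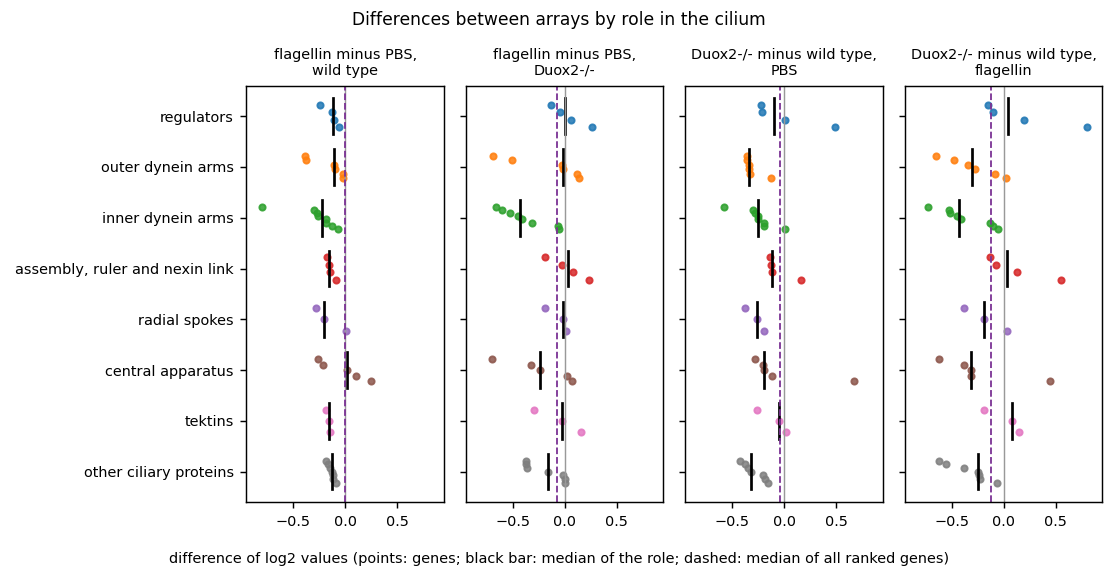
Difference of log2 values (horizontal axis) in the 4 pairwise comparisons, 1 point per gene and 1 row per role, with the role's median as a black bar and the median of all ranked genes as a dashed line. The inner dynein arm genes have medians of -0.22, -0.43, -0.25 and -0.43 from left to right. The medians of the regulators and tektins stay closer to 0, though the regulator Mcidas lies at 0.49 and 0.81 for genotype under PBS and after flagellin.

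Duox2-/- and wild-type mucosa under PBS differed by a median of -0.21 over the 40 genes, with 34 below 0. Ranked genes had a median of -0.04, and 57.7% of them lay below 0. All 6 outer arm genes (median -0.34), all 3 radial spoke genes (-0.27) and all 7 other ciliary proteins (-0.32) were lower in the Duox2-/- array. None of the 40 passed 1.5-fold lower, against 2.0% of ranked genes. Spag6, a central apparatus protein, was 1.5-fold higher at 0.68, as were 3.12% of ranked genes and 1095 of all 19938 genes. It is not ranked and lies near background on every array. The probe set of Spag6l, a related gene outside the list that was looked at after these values were seen, is well above that level and read 8.52, 8.18, 7.98 and 7.65. Its difference under PBS was -0.54, so the 2 symbols point to opposite sides.

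After flagellin, the Duox2-/- array was below the wild-type array for 31 of the 40 genes, against 66.8% of ranked genes, with medians of -0.21 and -0.12. Under loess rescaling the 2 medians were -0.12 and -0.02, and 25 of the 40 genes lay below 0, beside 52.9% of ranked genes. Dnah3 (-0.73), Dnah5 (-0.65), Spag17 (-0.62) and Ccdc113 (-0.62) passed 1.5-fold lower, 4 of 40 against 6.54% of ranked genes. Mcidas was higher at 0.81, where 4.57% of ranked genes passed 1.5-fold higher. The inner arm genes were again all below 0 (median -0.43). Of the regulators, Foxj1 (-0.11) and Rfx3 (-0.15) lay slightly below 0, and both lay between 0.01 and 0.04 under quantile and loess rescaling.

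The regulators differed in the order of their 4 arrays. Foxj1 read 8.14, 7.90, 7.92 and 7.79, in the order wild-type PBS, wild-type flagellin, Duox2-/- PBS and Duox2-/- flagellin that is kept from here on. Rfx3, which acts in many ciliated cell types, read 9.62, 9.51, 9.41 and 9.36. Both were highest in wild-type PBS and lowest in Duox2-/- flagellin. Rfx2, a relative of Rfx3, read 7.39, 7.27, 7.40 and 7.46, with the 4 arrays close together. Mcidas, which starts the multiciliated programme, read 6.20, 6.14, 6.69 and 6.94, with both Duox2-/- arrays above both wild-type arrays.

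Dynein heavy chains, the motor subunits, had uneven values. Outer arm Dnah5 read 9.75, 9.36, 9.39 and 8.70, so the wild-type flagellin and the Duox2-/- PBS arrays were nearly level and the Duox2-/- flagellin array lay below both. Dnah9, the outer arm chain of the distal cilium, had the same order at 9.30, 8.92, 8.95 and 8.45. Dnah11, its counterpart near the base, read 8.67, 8.56, 8.34 and 8.47 and did not follow them. In the inner arms, Dnah12 read 9.61, 9.35, 9.36 and 8.84, and Dnah10 read 7.61, 7.34, 7.33 and 6.89. Dnah6 read 8.51, 8.38, 8.52 and 7.85, with the Duox2-/- flagellin array below the other 3. Dnah3 read 9.34, 9.28, 9.15 and 8.55 at its brightest probe set, again lowest in Duox2-/- flagellin; most of its other probe sets were also lower in Duox2-/- PBS and in wild-type flagellin than in wild-type PBS. Dnah1 (6.86, 6.67, 6.67 and 6.61) and Dnah2 (7.24, 7.06, 6.99 and 6.93) were highest in wild-type PBS, with the other 3 arrays close together. The dim Dnah7a read 6.36, 5.56, 5.78 and 5.46. Grouped after their values were seen, the 10 heavy chains had median differences of -0.22 and -0.48 for flagellin in wild type and in Duox2-/-, and of -0.27 and -0.46 for genotype under PBS and after flagellin. The other 30 genes had -0.14, -0.02, -0.20 and -0.19; their flagellin median in Duox2-/- turned to 0.03 and 0.05 under quantile and loess rescaling. Being chosen on these values, the grouping has no test.

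The outer arm intermediate chains differed by genotype more than with flagellin. The intermediate chains Dnaic1 (7.48, 7.38, 7.12 and 7.11) and Dnaic2 (7.71, 7.69, 7.37 and 7.35), which anchor the motors, had both Duox2-/- arrays below both wild-type arrays. Ccdc114, part of the docking complex that fixes the outer arm to the doublet, read 7.25, 7.23, 7.12 and 7.24 and had the narrowest spread of the outer arm genes. Dnali1, an inner arm subunit, followed the heavy chains at 7.87, 7.57, 7.57 and 7.16.

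Genes for arm assembly, the ruler and the nexin link, other than Drc1, had small differences. Dnaaf1, a cytoplasmic assembly factor of dynein arms, read 7.37, 7.21, 7.26 and 7.34. Ccdc39 and Ccdc40, the coiled-coil pair that sets the axonemal repeat, read 8.64, 8.46, 8.52 and 8.33 and 7.85, 7.75, 7.71 and 7.68. Drc1, a scaffold of the nexin-dynein link, read 6.30, 6.15, 6.46 and 6.70 and was highest in Duox2-/- flagellin. Its genotype difference after flagellin was 0.55, at a level near background. Apart from Drc1, wild-type PBS was the highest array for each gene of this group.

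Wild-type PBS was the highest array for 2 of the 3 radial spoke head genes. Rsph1 read 8.28, 8.08, 7.91 and 7.89, and Rsph9 read 8.91, 8.62, 8.64 and 8.66. Rsph4a read 8.77, 8.78, 8.58 and 8.39, with both wild-type arrays level. In the central apparatus, Hydin, a very large protein of a central pair projection, read 8.15, 7.94, 7.95 and 7.63, and Spef2 read 9.93, 10.04, 9.65 and 9.72. Spag17 read 6.69, 6.42, 6.50 and 5.80 and Spag6 read 4.90, 5.15, 5.57 and 5.60, the one lowest and the other highest in Duox2-/- flagellin, both near or below 6.52. Spag16 stayed between 5.71 and 6.08. Tekt1 (6.64 to 6.89), Tekt2 (5.64 to 5.99) and Tekt4 (6.48 to 6.65), filament proteins inside the doublets, varied within narrow ranges.

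All 7 other ciliary proteins had both Duox2-/- arrays below both wild-type arrays, as had 39.2% of ranked genes; Ak7 did so with its middle pair all but level. Cfap43, which with Cfap44 ties inner arms to the doublet, read 10.23, 10.07, 9.88 and 9.51, and Cfap44 read 9.68, 9.58, 9.36 and 9.36. Ccdc113 read 7.63, 7.52, 7.25 and 6.89. Ak7, an adenylate kinase of the axoneme, read 8.01, 7.86, 7.86 and 7.49. Tppp3, a tubulin-binding protein abundant in multiciliated cells, read 7.99, 7.80, 7.57 and 7.56. Cfap52 (8.38 to 8.75) and Cfap65 (8.69 to 8.87) were also highest in wild-type PBS.

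Set side by side, the flagellin difference was smaller (more negative) in Duox2-/- than in wild type for 19 genes and larger for 21, with a median gap of 0.03 and a range from -0.54 to 0.48. Over all ranked genes the difference was smaller in Duox2-/- for 59.9%, with a median gap of -0.07. Dnah3 and Dnah6 lay at the low end, with wild-type and Duox2-/- differences of -0.07 and -0.61 for Dnah3 and of -0.13 and -0.66 for Dnah6. With the mean over all probe sets, the Dnah3 differences were -0.21 and -0.48, so its gap was -0.28 in place of -0.54, and the gap of Dnah6 was -0.67. The difference was lower in Duox2-/- for 5 of 5 central apparatus genes and 0 of 4 regulators, beside the same 59.9% of ranked genes. Every other role had genes on both sides. Of these genes, Spag6 and Spag16 are dim, and the gaps of Spef2 (-0.04) and Rfx3 (0.06) are small. Spag17 was ranked through wild-type arrays only and Mcidas through Duox2-/- arrays only. The gap between the responses is a single value per gene and could not be tested.

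**Figure D3:**
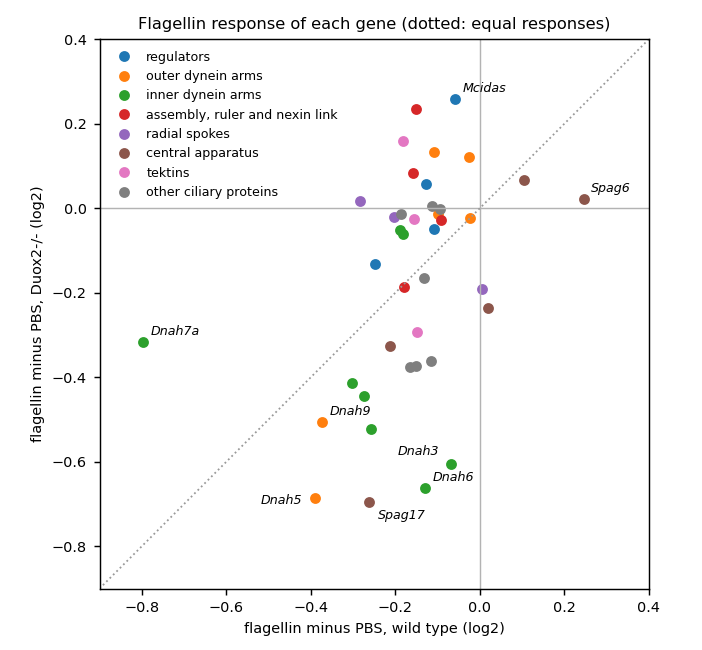
Flagellin minus PBS (log2) in wild type (horizontal axis) and in Duox2-/- (vertical axis), 1 point per gene coloured by role; the dotted line marks equal responses. The points fall on both sides of the line, 19 below and 21 above; Dnah3, Dnah6, Dnah5 and Spag17 lie lowest and Dnah7a farthest left.

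The only fit across all genes that 4 single arrays allow is an additive limma model, with 1 shift for flagellin and 1 for genotype. Its 1 residual degree of freedom is the interaction, which it treats as error. For flagellin, limma with Benjamini-Hochberg adjustment called none of the 36 genes tested, against 0.281% of all genes; 7 had an unadjusted p under 0.05, all with a negative shift, while of the 12471 genes 805 had such a p, 453 of them with a negative shift. The lowest adjusted p was 0.307, for Dnah5 (shift -0.54, SE 0.138). For genotype, none of the 36 fell, against 1.98% of all genes, and 1 rose, against 2.39%. Mcidas rose by 0.65 (SE 0.139, limma adjusted p = 0.0417), and its adjusted p was 0.0751, 0.0743 and 0.133 when arrays were centred on their medians, quantile normalised or loess normalised. Mcidas entered the fit only through the Duox2-/- arrays, where it is higher, so the filter favoured this difference. With no filter its limma adjusted p was 0.0309, in a setting that called 9.42% of all genes for genotype, against 4.37% with the filter. Next came Ccdc113 (-0.50, SE 0.135, limma adjusted p = 0.0724), Dnah5 (-0.51, SE 0.138, adjusted p = 0.0744) and Cfap43 (-0.45, SE 0.133, adjusted p = 0.0891), which did not pass. Of the 36 genes, 15 had an unadjusted p under 0.05 for genotype, 13 of them negative, while 2888 of the 12471 genes had such a p, 1735 of them negative. With trended, robust moderation limma called 6 genes lower in Duox2-/-, namely Dnah5, Dnah9, Dnah3, Dnah12, Cfap43 and Ccdc113, and Mcidas higher, and for flagellin it called Dnah5 lower (adjusted p = 0.0148). That setting called 11.7% of all genes for genotype and 1.21% for flagellin.

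Over all genes, the genotype difference went with signal level, which was looked at after the values were seen. Genes with a mean above 8 had median genotype differences of -0.07 under PBS and -0.19 after flagellin, and genes with a mean under 6.52 had 0.21 and 0.29. The 16 cilia genes with a mean above 8 had medians of -0.26 and -0.28. The 17 with a mean between 6.52 and 8 had -0.22 and -0.13, where all genes of that band had -0.04 and -0.09. The 7 with a mean under 6.52, which include Mcidas, Drc1 and Spag6, had -0.05 and -0.10. The part of signal level in the cilia genes' differences was not tested.

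The probe sets of a gene mostly pointed the same way where there were several, as for 6 of the 40 genes. Dnah3 had 33 probe sets, of which 32 were lower with flagellin in each genotype and 32 were lower in Duox2-/- under each treatment; their median differences were -0.20 for flagellin in wild type, -0.47 for flagellin in Duox2-/-, -0.36 for genotype under PBS and -0.64 for genotype after flagellin. All 5 probe sets of Cfap43 were below 0 in every comparison. The 3 of Dnah6 and the 2 of Dnah12 were below 0 for flagellin in Duox2-/-, with medians of -0.75 and -0.70. The 22 probe sets of Spef2 were split for flagellin in wild type, where 8 were below 0, while 21 were below 0 for genotype after flagellin. Probe sets of 1 gene share the RNA and are not replicates of a condition.

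**Figure D4:**
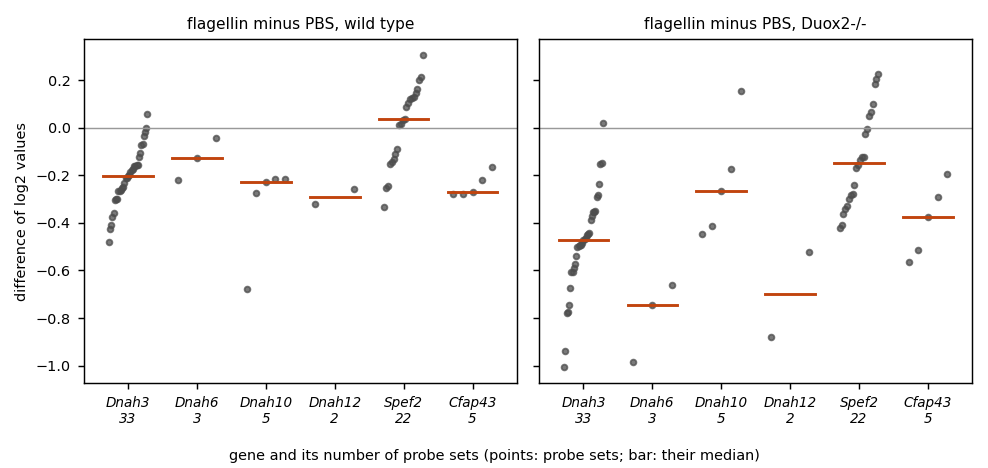
Flagellin minus PBS (log2, vertical axis) for each probe set of the 6 genes with several, in wild type (left) and Duox2-/- (right), with the number of probe sets under each gene and their median as a bar. In Duox2-/-, 32 of the 33 Dnah3 probe sets and all of those of Dnah6, Dnah12 and Cfap43 lie below 0, while Dnah10 and Spef2 have probe sets on both sides.

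Longer genes had lower differences in the comparisons that use the Duox2-/- flagellin array, among the 40 and, more weakly, over ranked genes. Across the 40 genes, which share the 4 arrays, the flagellin difference in Duox2-/- went with the log10 of gene span (RefSeq, GRCm38.p6) at r = -0.40 and rho = -0.40, and the genotype difference after flagellin at r = -0.37 and rho = -0.41. The same values over 12447 ranked genes were r = -0.25 and rho = -0.26, and r = -0.24 and rho = -0.23. Over 70 other motile cilia genes these comparisons had r = -0.17 and r = -0.28. For flagellin in wild type and genotype under PBS, the 40 genes had r = -0.15 and -0.18. The 70 other motile cilia genes had r = 0.11 and -0.09 there. The 15 cilia genes over 100 kb, among them most heavy chains, had medians of -0.38 for flagellin in Duox2-/- and -0.45 for genotype after flagellin. The 21 genes of 10 to 100 kb had -0.02 and -0.07, and the 4 genes under 10 kb had -0.07 and -0.15. Ranked genes over 100 kb had -0.12 and -0.16, those of 10 to 100 kb had -0.10 and -0.16, and those under 10 kb had 0.02 and -0.0014. The only bounds used were 10 and 100 kb, so where along gene span the differences change was not estimated. The 16 genes with GTTGCC in their windows had medians of -0.12, -0.02, -0.21 and -0.17 in the 4 comparisons (flagellin in wild type, flagellin in Duox2-/-, genotype under PBS, genotype after flagellin). The 17 without it had lower medians in each, at -0.18, -0.19, -0.25 and -0.27. Among the 17 are Dnah5, Spag17, Dnali1 and Cfap52, which hold the longer GTTNCCAT. The 17 also include more of the heavy chains than the 16 do. The difference between these groups was not tested.

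Further genes of motile cilia, 70 with values and none in the list of 40, had medians of -0.07, -0.05, -0.18 and -0.13 in the same 4 comparisons, with 50, 42, 58 and 51 of the 70 below 0, or 71.4%, 60.0%, 82.9% and 72.9%, beside 50.4%, 62.2%, 57.7% and 66.8% of ranked genes. Of these 70, 62 were tested and limma called 0 in either direction for both factors; at an unadjusted p under 0.05 it had 6 for flagellin and 12 for genotype, all with a negative shift. Sntn, a protein of the ciliary tip, read 7.56, 7.39, 7.35 and 6.46 and had the lowest differences of the 70 for flagellin in Duox2-/- (-0.89) and for genotype after flagellin (-0.93). Dnaaf3, an assembly factor of dynein arms, read 8.20, 7.85, 7.65 and 7.33 and was lowest for flagellin in wild type (-0.35). The other genes with the 2 lowest or 2 highest differences of a comparison were as follows. For flagellin in wild type they were Spata17 (-0.31), Ccdc151 (0.15), which helps dock outer arms, and the dim Spag1 (0.18). For flagellin in Duox2-/- they were the inner arm chain Dnah7c (-0.66), Pifo (0.32) and the dim Dnah7b (0.44), where Dnah7b and Dnah7c are near-identical copies whose values are uncertain. For genotype under PBS they were Dnah7b (-0.71), Dnaaf3 (-0.55), the dim Dnaaf6 (0.17) and Cfap300 (0.40). For genotype after flagellin they were Ttc29 (-0.69), Wdr38 (0.25) and the assembly factor Dnaaf2 (0.43). The 13 genes of centriole amplification had medians of 0.02, -0.06, 0.02 and -0.11, and only 5 of them were bright enough to be tested. The 31 genes of intraflagellar transport and the BBSome, which serve motile and non-motile cilia alike, had -0.01, 0.02, -0.03 and -0.04. Limma called 0 of the 5 and 0 of the 31 for either factor, and 0 at an unadjusted p under 0.05.

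General epithelial markers were also lower in the Duox2-/- arrays, by more than the cilia genes. All 12, each of them ranked, were lower in Duox2-/- under PBS (median -0.47) and after flagellin (-0.45), so the cilia genes' medians stood 0.26 and 0.24 above theirs. Their median level was 9.22, 9.11, 8.82 and 8.43. For flagellin in wild type the epithelial median was -0.02, with 6 of 12 below 0, and the cilia genes' median lay -0.13 from it. Basal cell genes had -0.45 and -0.78 for genotype, with 7 and 6 of 8 below 0. Secretory cell genes had -0.22 and -0.08, with 7 and 6 of 10 below 0. Sustentacular and Bowman gland genes had -0.25 and -0.13, with 7 and 5 of 7 below 0, so both lists were near the cilia genes under PBS. Nasal gland secretion genes had -0.04 and 0.405, with single genes from -1.29 to 6.77 under PBS. Mature olfactory neuron genes had -0.07 and 0.16 for genotype and 0.35 for flagellin in Duox2-/-, where all 12 were above 0. The largest list shifts were in skeletal muscle, whose median level was 5.42, 6.85, 8.15 and 5.94, and all 10 muscle genes were higher in the Duox2-/- PBS array than in wild-type PBS (median 2.57) and lower after flagellin in Duox2-/- (-2.11). Endothelial genes had medians of -0.60 for flagellin in Duox2-/- (7 of 8 below 0) and -0.70 for genotype after flagellin (8 of 8). Fibroblast genes had -0.43 for flagellin in Duox2-/- (8 of 8), and 0.39 and -0.30 for genotype under PBS and after flagellin. Neutrophil genes had a flagellin median of 1.23 in wild type and 0.23 in Duox2-/-. The part of these other cell types in the cilia genes' differences was not tested.

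**Figure D5:**
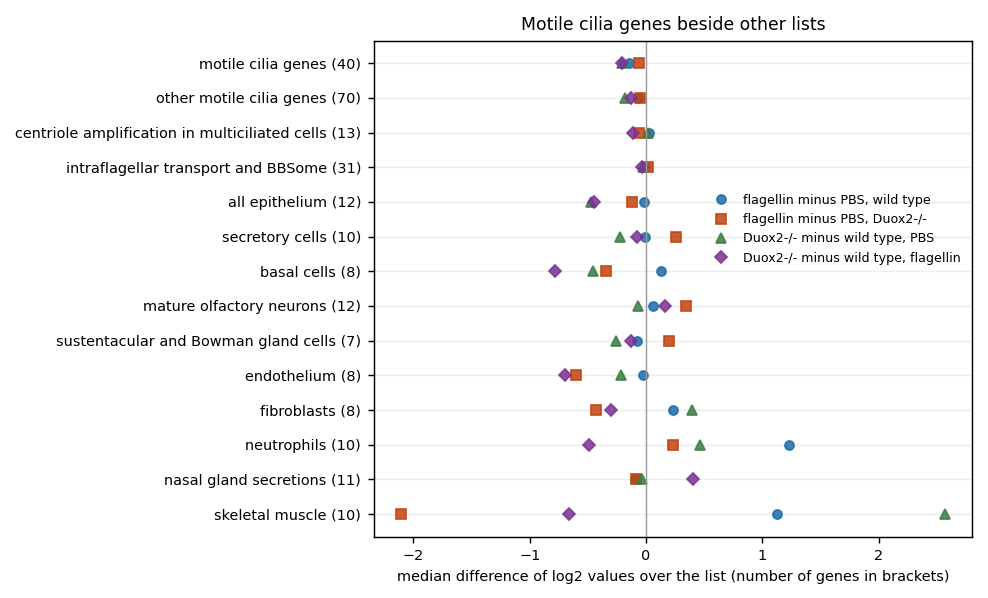
Median difference of log2 values (horizontal axis) over each list of genes, 1 symbol per pairwise comparison, with the number of genes in brackets. The motile cilia genes lie between -0.21 and -0.06, the epithelial genes at -0.47 and -0.45 for the genotype comparisons, and skeletal muscle ranges from -2.11 to 2.57.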

How the data were processed

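Nasal mucosa RNA was measured on 4 arrays, 1 per group. The authors deposited log2 values, made per the submitters' processing notes with RMA in Affymetrix Expression Console 1.1; no source used here gives the genome build of the probe sets. Of 35556 probe sets, 21789 had 1 gene in GEO's platform annotation, 1621 several and 12146 none listed; the last 2 kinds were left out. A gene took its probe set with the highest mean over 4 arrays. Genes reaching 6.52 (the median of all values) on any array were ranked and tested. Pairwise differences have no test. An additive fit used limma 3.58.1 (R 4.3.3), eBayes and Benjamini-Hochberg adjustment over 12471 genes at 0.05. The number of arrays limits precision. Nothing says that arrays are separate animals. Members, lists and alternatives were chosen with earlier results of these data known. Values per array were to be named for the highest and lowest gene of each role. All 40 genes are given, with Spag16, the tektins, Cfap52 and Cfap65 only as ranges over the arrays. Of other motile cilia genes, the 2 highest and 2 lowest differences per comparison were named. Promoter windows came from RefSeq (GRCm38.p6).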

Additional observations from a re-analysis of the deposited data

Results flagged for a closer look

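In 4 genes a difference had opposite signs in the 2 genotypes or treatments, each at least 0.1 from 0 on the log2 scale. The flagellin difference of Dnah11, an outer arm heavy chain, was -0.11 in wild type and 0.13 in Duox2-/-. That of Drc1, of the nexin link, was -0.15 and 0.24, at a level near background. That of Tekt1, a tektin, was -0.18 and 0.16. The genotype difference of the assembly factor Dnaaf1 was -0.11 under PBS and 0.13 after flagellin. Each sign rests on 1 array per group, and the difference between the effects was not tested.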

How the results depend on the processing

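The median differences of the 40 genes kept their sign under every rescaling tried. Their position beside ranked genes did not for flagellin in Duox2-/-. There the median minus that of ranked genes was 0.01 as deposited and after centring, -0.04 after quantile and -0.05 after loess normalisation. For genotype after flagellin, the median was -0.21 as deposited, -0.27 after centring, -0.13 after quantile and -0.12 after loess normalisation, where the median of all ranked genes moved from -0.12 to -0.02. For flagellin in Duox2-/- 32 of 40 genes kept their sign under quantile and under loess normalisation, and for genotype after flagellin 34. Against 0 genes past 2-fold, 1.5-fold gave 1 gene for flagellin in wild type, 4 for flagellin in Duox2-/-, 1 for genotype under PBS and 5 for genotype after flagellin. Limma's genotype calls among the 40 were 1 as reported, 0 after centring, quantile or loess normalisation, 2 with the mean over probe sets, 2 with no filter and 7 with trended, robust moderation. The flagellin calls were 0, and 1 with trended, robust moderation. Over all genes, the genotype calls were 545 as reported, 161 after centring, 284 after quantile and 1 after loess normalisation, 1879 with no filter and 1460 with trended, robust moderation. The flagellin calls were 35, and 7, 36, 0, 60 and 151 in the same order. The cause of these shifts was not tested. No paired analysis was possible because each group has 1 array, and leaving out an array would remove its group. Genes near background have differences that the signal limits.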
